A study of Mus musculus with 6 samples.

Results

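The genes described here carry the names of nuclear subunits of mitochondrial respiratory complexes I, II and III and of complex V, the ATP synthase, though a few of these proteins belong elsewhere. They were taken from the tables by symbol: Nduf followed by a, b, c, s or v and a digit, Sdha to Sdhd, and every symbol that begins with Uqcr or Atp5. The pattern gave 66 of 24346 symbols, of which 37 belong to complex I by name, 4 to complex II, 8 to complex III and 17 to complex V. RNA came from retinas of mice at postnatal day 12. All 6 libraries carry the Nrl-/- genotype, used to enrich the retina for cone-like cells, since Nrl directs photoreceptor precursors to the rod fate. The 3 control libraries are Panky+/- and Panky-like+/-, so they are heterozygous rather than wild type, and the 3 triple-deficient libraries are Panky-/- and Panky-like-/-. The series describes littermate pairs, but the labels do not say which libraries are littermates, which sex they are, or whether each library is 1 animal, so p-values cover the spread between these samples only.

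Complex I passes electrons from NADH to ubiquinone, complex II does so from succinate, and complex III passes them on to cytochrome c. Complexes I and III pump protons as they do so, and complex V uses the proton gradient to make ATP. Photoreceptors pack mitochondria into the ellipsoid of the inner segment, where ion pumping and phototransduction draw heavily on ATP. Several core subunits of complexes I, III and V are encoded by the mitochondrial genome, and these were not analysed here.

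Values are FPKM, which divide a gene's fragments by its transcript length and by the size of the library, so that levels of different genes can be compared per length. The steps between low values put the depth of the other libraries at 0.807 to 1.21 times that of control 1, the lowest being triple-deficient 3 and the highest triple-deficient 1. Ankrd33b, the paralog taken here to be Panky-like, was at 33.8 ± 1.45 FPKM in controls and 1.5 ± 0.265 in triple-deficient libraries (SD, n = 3), and Ankrd33, taken to be Panky, at 106 ± 2.97 and 55.6 ± 4.66. Nrl was at 44.2 ± 5.46 and 52.5 ± 1.16 FPKM. Values over a whole gene do not show whether its deleted part is transcribed, for Ankrd33 as for Nrl. Summed over 6 cone markers, levels were 4924 to 5055 FPKM in controls and 4478 to 4991 in triple-deficient libraries, and the lens, blood and microglia lists reached at most 12.4, 38.8 and 27.4 FPKM. The sum of 5 Mueller glia markers was 1608 to 1647 FPKM in controls and 1428 to 1562 in triple-deficient libraries, without overlap, though none of the 5 was called and only 1 lay below the controls. Pigment epithelium markers summed to 43.1 to 54.9 FPKM in controls and 31.9 to 45.2 in triple-deficient libraries, with 3 of 5 tested markers below the controls. Of the cone markers 1 of 6 also lay below. Above the controls lay 2 of 4 rod markers tested, 1 of 4 horizontal cell markers and 1 of 3 lens markers. Of all genes tested, 5.64% lay below the controls and 4.86% above. The part of any cell class in the results was not tested. Triple-deficient 3 stood apart in base composition. Its deviations from the gene means correlated with GC content at Spearman -0.60 across genes, against 0.07 to 0.29 in the other libraries. Control 3 stood apart in transcript length. Its deviations correlated with length at Spearman -0.31, against -0.05 to 0.17 in the other libraries.

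The respiratory genes were among the more abundant transcripts of these retinas, and all 66 passed the filter of a mean of 0.5 FPKM. Together they took 2.50% to 2.62% of the summed FPKM in controls and 2.50% to 2.57% in triple-deficient libraries. Their median level was 119 FPKM, against 11.7 FPKM over the 14325 genes tested, and 61 of the 66 (92.4%) averaged 50 FPKM or more, against 11.6% of all genes tested. By complex, the median level was 225 FPKM for complex V, 177 for complex III, 95.6 for complex I and 78.8 for complex II. The 4 genes of complex II spanned only 1.77-fold, from Sdhd at 60.2 to Sdha at 107 FPKM, and the 8 genes of complex III spanned 3.24-fold.

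**Figure D1:**
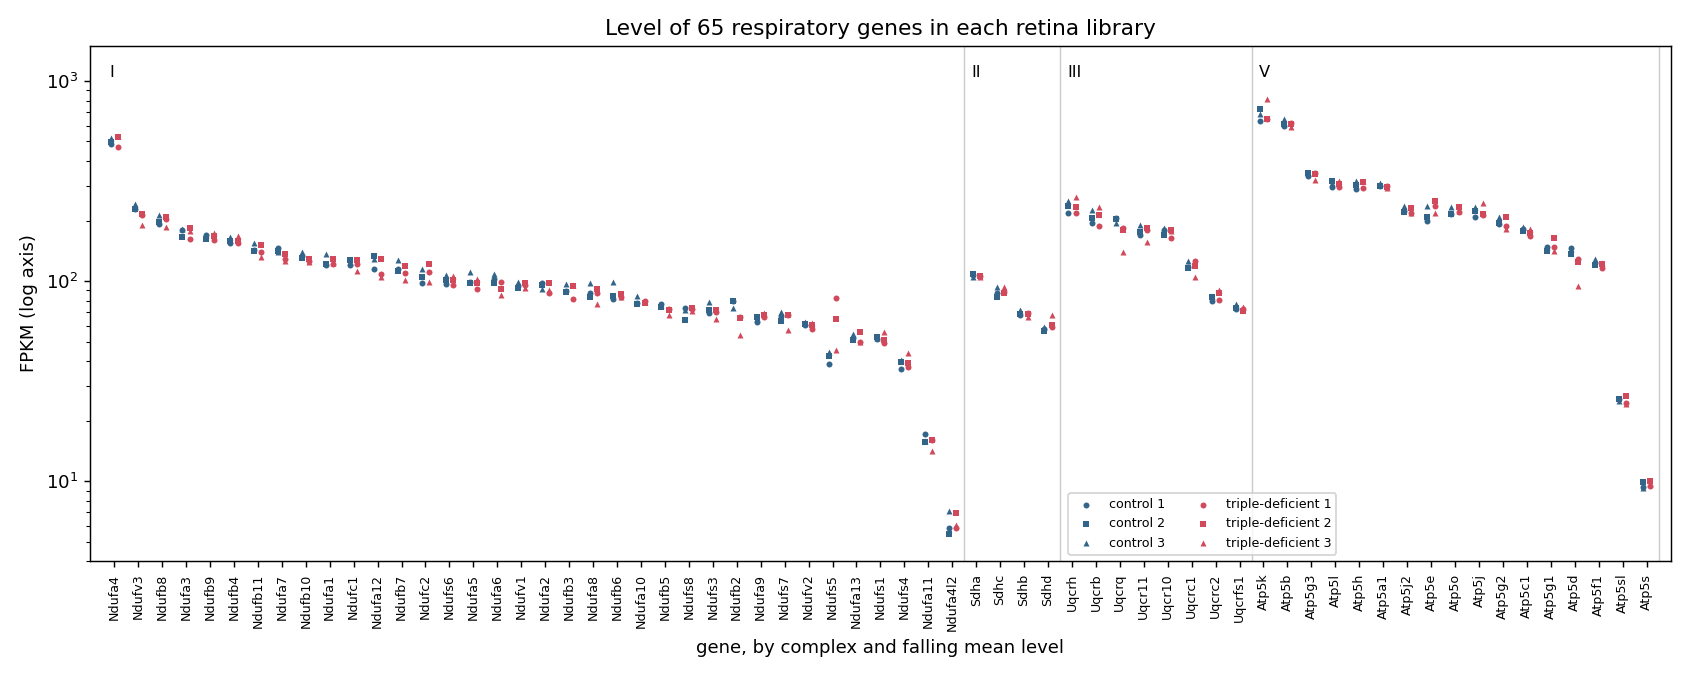
FPKM (log axis) of 65 of the 66 genes in each library, grouped by complex and ordered by mean level; blue marks are controls, red marks triple-deficient libraries, and the shape gives the library number. Most genes lie at 50 FPKM or above, Atp5k, Atp5b and Ndufa4 are highest, Ndufa4l2 is lowest, and the red and blue marks of most genes overlap.

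Atp5k, a small membrane subunit of the ATP synthase, was the most abundant at a mean of 691 FPKM, followed by Atp5b, the catalytic beta subunit, at 613 FPKM. FPKM of a transcript as short as that of Atp5k depends on how its effective length was set, which is not given in the sources used here. Next was Ndufa4 at 505 FPKM, a protein named for complex I that is now assigned to cytochrome c oxidase. Its relative Ndufa4l2, known as a hypoxia-induced gene, was the least abundant member at 6.22 FPKM. A pair of further low members, Atp5s and Atp5sl (9.63 and 25.5 FPKM), carry the Atp5 prefix but are not subunits of the synthase: RefSeq lists them as Dmac2l and Dmac2. Without the NDUFA4 relatives and these, the lowest level was that of Ndufa11, at 15.9 FPKM.

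No respiratory gene passed the threshold. limma on log2(FPKM + 1) values called 0 of the 66 at an adjusted p below 0.05, where 4 of all 14325 genes tested (0.0279%) were called; the smallest adjusted p among the 66 was 0.651. At an unadjusted p below 0.05 there were 7 members (10.6%), against 5.09% of all genes tested. Of these 6 were lower in triple-deficient libraries, against 3.33% of all genes, and 1 was higher, against 1.76%. The groups did not overlap for 9 members (13.6%), against 10.5% of all genes. The 3 triple-deficient values were all below the controls for 7 of them, where 5.64% of all genes are, and all above for 2, where 4.86% are. Of the 1657 genes averaging 50 FPKM or more, 5.25% reached an unadjusted p below 0.05, 69 as lower and 18 as higher. The groups did not overlap for 11.1% of these 1657, with 118 below the controls and 66 above.

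The differences were small. For 61 of the 66 members the 95% interval excluded a difference of 25% or more (larger over smaller group, in FPKM + 1), which was so for 92.7% of all genes averaging 50 FPKM or more. The exceptions were Ndufb2, Ndufa12, Ndufs5, Uqcrq and Atp5d. The median log2 change was -0.03 for complex I, 0.003 for complex II, -0.03 for complex III and -0.02 for complex V, beside 0.003 over all genes tested. Means were lower in triple-deficient libraries for 48.2% of all genes tested and 53.7% of those averaging 50 FPKM or more. Among the members, 44 (66.7%) were lower and 22 higher. That split moved with the libraries and the scaling: 34 were lower without control 3 and 52 without control 1, and 38 with quantile normalization, where the median of complex V was 0.02. With array weights 34 were lower, and with GC and length trends removed 36 were, where the median of complex III was 0.009. Libraries of the same group differed by about as much: the median within-group SD was 0.08 on the log2 scale over the members, and 0.07 over all genes at that level. Summed over complex I, controls 1 to 3 stood at 4057, 4062 and 4317 FPKM and triple-deficient libraries 1 to 3 at 3977, 4193 and 3950, so the groups overlapped. In a whole retina, a lower value cannot be split into fewer cells of a type and less RNA per cell.

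**Figure D2:**
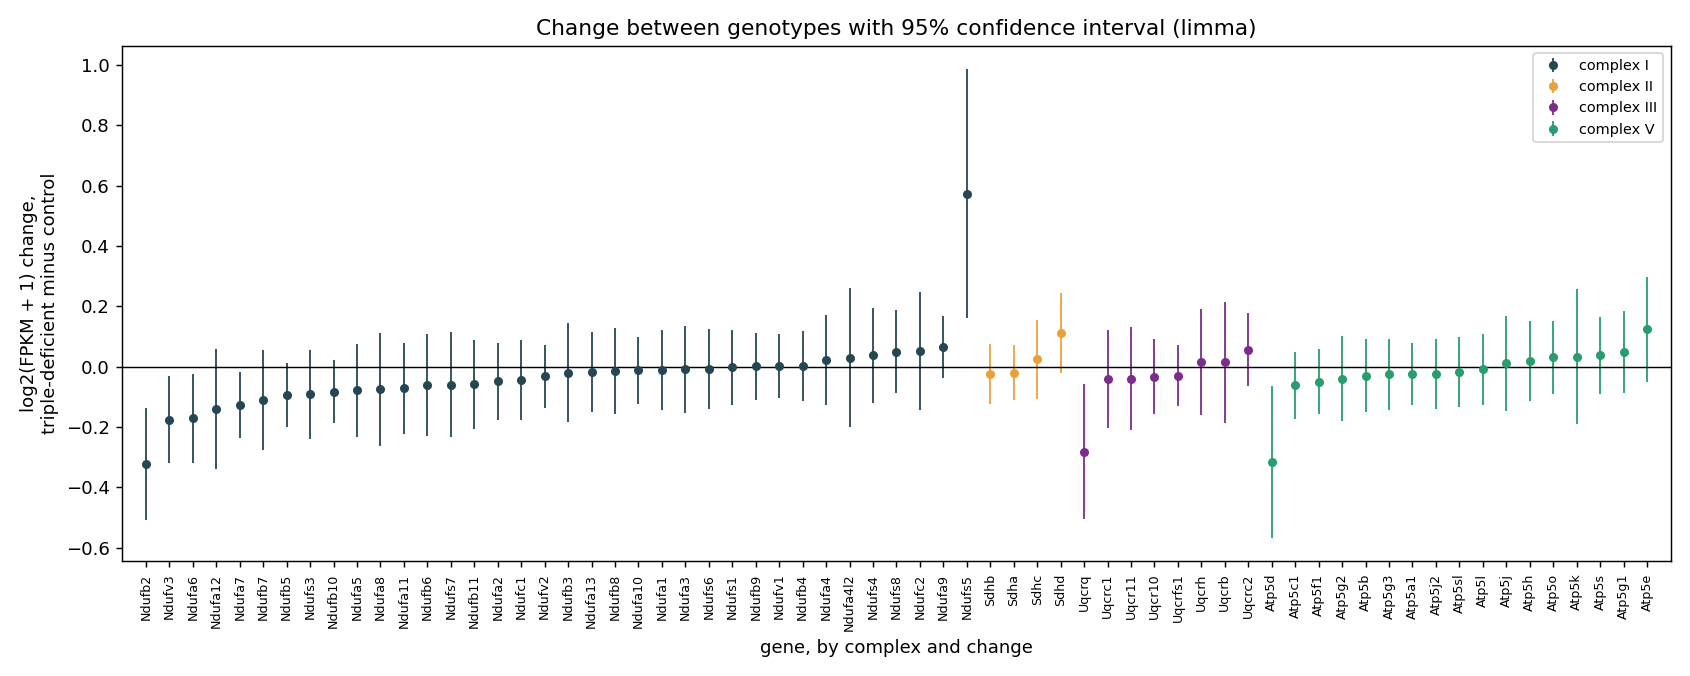
Log2 change of FPKM + 1 of 65 of the 66 genes (negative where triple-deficient libraries are lower), with its 95% confidence interval from limma (3 libraries per group), coloured by complex and ordered by change. All but 7 intervals include 0; Ndufb2, Ndufv3, Ndufa6, Ndufa7, Uqcrq and Atp5d lie below it and Ndufs5 above.

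The nuclear core subunits, which hold the flavin and the iron-sulphur clusters or bind ubiquinone, lay close together between groups. None of the 7 reached an unadjusted p below 0.05, where 5.09% of all genes tested did. None had groups that did not overlap, where 10.5% of all genes did. With only 7 genes these counts do not set the core apart. Its median log2 change, -0.03, was that of complex I. Ndufv1, the NADH-binding flavoprotein, was at 94.8, 92.8 and 99.1 FPKM in controls 1 to 3, against 96.3, 98.2 and 92.7 in triple-deficient libraries 1 to 3. Ndufs1, the largest iron-sulphur subunit, was at 52.0 ± 0.796 FPKM in controls and 51.9 ± 3.47 in triple-deficient libraries. Ndufv2, a further iron-sulphur subunit next to Ndufv1, was at 61.5 ± 1.22 and 60.2 ± 2.15 FPKM. Subunits of the quinone-binding module had overlapping groups too: Ndufs3 was at 73.4 ± 5.07 and 68.8 ± 3.96 FPKM, Ndufs7 at 66.8 ± 3.32 and 64.2 ± 6.36, and Ndufs8 at 70.01 ± 5.24 and 72.4 ± 1.57 (SD, n = 3 each). All 7 intervals of the core subunits lay between -0.24 and 0.19 on the log2 scale.

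Of the 9 accessory subunits of the peripheral arm, which surround this core, 7 had a lower mean in triple-deficient libraries and 3 reached an unadjusted p below 0.05. Of all genes tested, 48.2% had a lower mean and 5.09% reached that level, 3.33% as lower. The median log2 change of the 9 was -0.08. Ndufv3, a small subunit beside the flavoprotein, was at 229, 229 and 244 FPKM in controls, against 215, 217 and 191 in triple-deficient libraries. Every triple-deficient value was below every control, with triple-deficient 3 lowest, and limma gave a log2 change of -0.18 (SE 0.06) at an adjusted p of 0.866, and of -0.12 without triple-deficient 3. Ndufa6, a subunit of the LYR protein family, was at 103, 98.6 and 108 FPKM in controls and 98.8, 91.7 and 85.0 in triple-deficient libraries. Its groups overlapped by a small margin, at control 2 and triple-deficient 1 (log2 change -0.17, SE 0.06, limma adjusted p = 0.906). Ndufa7, a subunit of the same arm, was at 147, 141 and 140 FPKM against 130, 136 and 127, without overlap (log2 change -0.13, SE 0.05, limma adjusted p = 0.906). Ndufa9, which sits near the quinone site, had the largest change upward in this arm, 0.06.

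The 19 accessory subunits of the membrane arm, the part that pumps protons, held both extremes. Their median log2 change was -0.02. Ndufb2, a small single-pass subunit of the distal end, was at 79.4, 80.1 and 73.2 FPKM in controls and 66.3, 65.7 and 54.2 in triple-deficient libraries. The groups did not overlap and triple-deficient 3 was lowest. Its log2 change of -0.32 (SE 0.08, limma adjusted p = 0.651) had the smallest p of all 66 members and left 80.0% of the control mean. Without triple-deficient 3 the change was -0.23. GENCODE annotates Braf and Gm16272 on the opposite strand over part of Ndufb2 and Gm42420 on the same strand, and whether counting used strand is not given. Braf was at 25.8 ± 2.77 FPKM in controls and 27.1 ± 1.04 in triple-deficient libraries. An overlap with a gene on the opposite strand was found for 25 of the 66 members. Ndufb5 and Ndufb10, of the same distal arm, also had groups that did not overlap, at 75.7 ± 1.05 against 70.9 ± 2.95 FPKM and 135 ± 4.57 against 127 ± 2.52, with neither at an unadjusted p below 0.05. Ndufb8, the most abundant subunit of this arm, was at 202 ± 11.6 and 200 ± 11.3 FPKM.

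Of the NDUFA4 relatives, Ndufa4 was at 486, 494 and 522 FPKM in controls and 469, 526 and 533 in triple-deficient libraries, so triple-deficient libraries held both the lowest and the highest value. Ndufa4l2 was at 6.16 ± 0.874 and 6.28 ± 0.612 FPKM.

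Ndufs5, an accessory subunit of the membrane arm (chr4:123712710-123718202, minus strand, GRCm38), had the largest change of any member. It was at 38.7, 42.3 and 44.2 FPKM in controls 1 to 3, against 82.7, 64.8 and 45.6 in triple-deficient libraries 1 to 3. The groups did not overlap, but triple-deficient 3 lay just above the highest control while triple-deficient 1 was far above it. limma put the log2 change at 0.57 (SE 0.18, adjusted p = 0.836), at 0.80 without triple-deficient 3 (adjusted p = 0.0825) and at 0.38 without triple-deficient 1 (adjusted p = 0.627).

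The tables also list BC002163, which GENCODE annotates as a processed pseudogene (chr16:42955631-42955949, plus strand, GRCm38). It is 319 bases long, all of them matching the coding sequence of Ndufs5 (321 bases) with 2 differences, an identity of 99.37%. The stretches that hold these differences are the only ones by which the sequence alone can assign a fragment of that coding region to 1 of the genes, and are shown for that reason, 5′ to 3′ from GENCODE M21, with the differing base in capitals. Positions are counted from the first base of the coding sequence, with the Ndufs5 base first. The first difference is T81C and the second is A105G.
Ndufs5 at T81C: agaacagccctaTaagaacgccgct
BC002163 at T81C: agaacagccctaCaagaacgccgct
Ndufs5 at A105G: tcggtgccacgcAtttgaaaaagag
BC002163 at A105G: tcggtgccacgcGtttgaaaaagag

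BC002163 moved the other way. It was at 79.0, 80.2 and 83.3 FPKM in controls 1 to 3, against 24.1, 52.5 and 90.7 in triple-deficient libraries 1 to 3, so the libraries with the highest Ndufs5 had the lowest BC002163. The groups overlapped, and limma put the log2 change at -0.72 (SE 0.38, adjusted p = 0.943). Ndufs5 made up 32.9%, 34.6% and 34.7% of the summed FPKM of both in the controls and 77.4%, 55.2% and 33.5% in the triple-deficient libraries, where only triple-deficient 3 was near the controls. The sum itself was 123 ± 4.90 FPKM in controls and 120 ± 14.9 in triple-deficient libraries (SD, n = 3). From limma, the sum differed by -0.04 on the log2 scale (95% interval -0.23 to 0.16, adjusted p = 0.978). In triple-deficient 1 and 2 the higher Ndufs5 values stood beside lower BC002163 values, and the summed FPKM of the groups overlapped. FPKM are per length and the genes differ in length, so the sum is not a sum of fragments. A different division between both genes and separate changes of each cannot be told apart by it. How the authors placed fragments that match several sites is not given in the sources used here, and its part in these values was not tested.

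**Figure D3:**
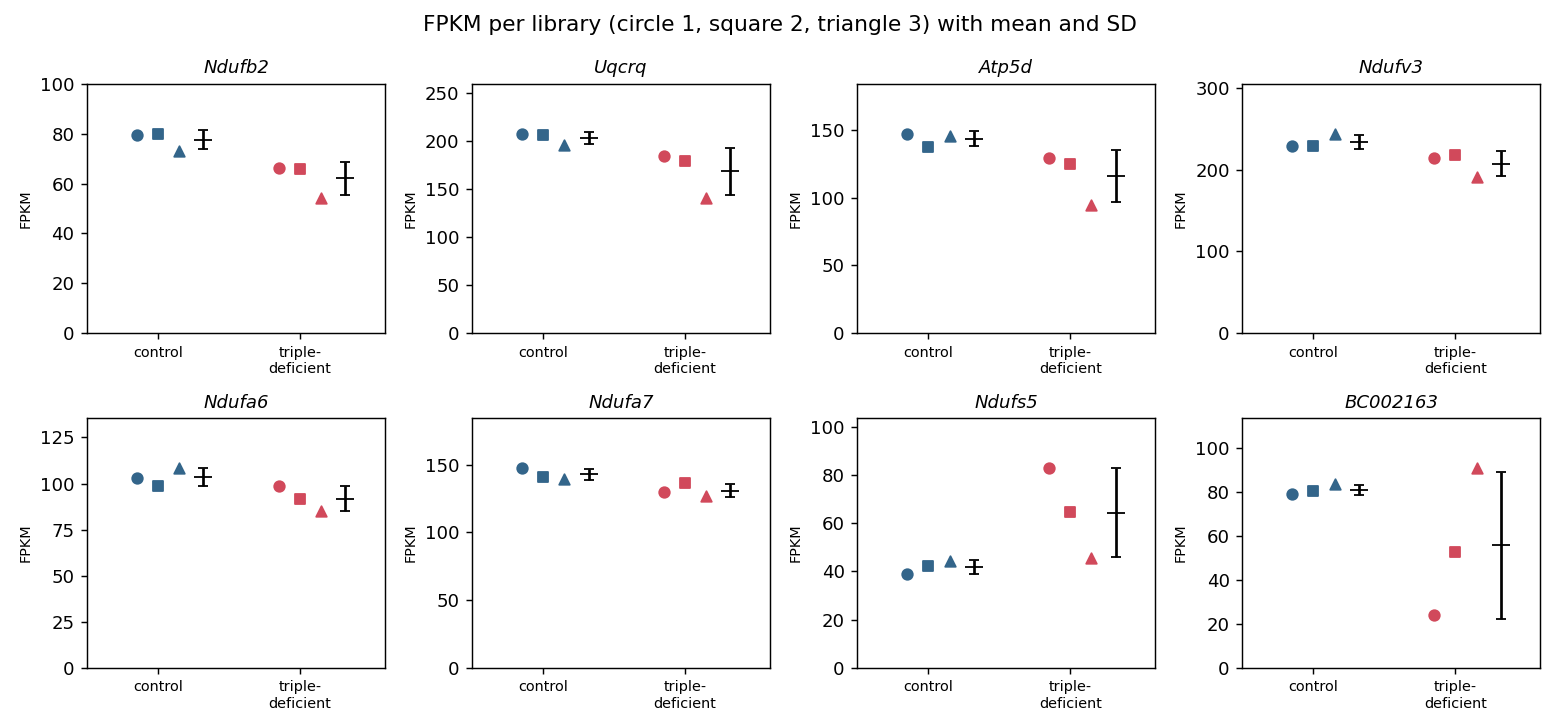
FPKM in each library (circle 1, square 2, triangle 3; axes start at 0) of the 7 members with an unadjusted p below 0.05 and of BC002163, with the mean and SD of each group (n = 3). Triple-deficient 3 is the lowest triple-deficient value in the 6 members that are lower, and in the Ndufs5 and BC002163 panels the triple-deficient libraries stand in opposite order while the controls lie close together.

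Near-identical copies were not limited to Ndufs5, though their rate among other genes was not counted. At 95% identity over at least 200 bases, 15 of the 66 members had 28 such copies among GENCODE genes outside their own locus, and BC002163 was the only one found among the rows used here. Values of the other 14 members with copies, among them Atp5l (9 copies), Atp5h (4) and Uqcrb (3), may carry a similar uncertainty without a second row to compare. Its size was not measured and may differ from that for Ndufs5.

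Succinate dehydrogenase also serves the citric acid cycle, and its 4 genes are all nuclear. None of them reached an unadjusted p below 0.05, where 5.09% of all genes tested did. Sdha, the flavoprotein, was at 107, 109 and 106 FPKM in controls and 106, 106 and 105 in triple-deficient libraries. Sdhb, the iron-sulphur subunit, was at 69.3 ± 2.03 and 68.2 ± 1.38 FPKM, and Sdhc, a membrane anchor, at 88.1 ± 5.46 and 89.5 ± 3.49. Sdhd, the other anchor, was at 57.5, 56.8 and 59.0 FPKM in controls and 59.4, 60.4 and 67.9 in triple-deficient libraries. Its groups did not overlap, though triple-deficient 1 was only 0.382 FPKM above control 3, and its log2 change of 0.11 (SE 0.06, limma adjusted p = 0.943) was the largest of the complex. It was 0.05 without triple-deficient 3. All 4 intervals lay between -0.12 and 0.24.

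Of the core, Uqcrc1 and Uqcrc2 and the Rieske iron-sulphur protein Uqcrfs1, none differed beyond the spread. Uqcrc2 had the largest change upward, from 82.6 ± 2.61 to 86.0 ± 4.71 FPKM (log2 change 0.06, limma adjusted p = 0.958), with overlap, and the change was 0.02 without triple-deficient 3, 0.03 without control 1 and 0.10 without triple-deficient 1. Of the small accessory subunits, Uqcrh, the acidic hinge protein that helps cytochrome c bind, was at 236 ± 15.9 and 239 ± 21.8 FPKM, and Uqcrb at 210 ± 16.0 and 213 ± 23.04. Uqcrq, which lies beside Uqcrb and mitochondrial cytochrome b, stood apart. It was at 208, 206 and 196 FPKM in controls and 185, 179 and 140 in triple-deficient libraries, with no overlap and triple-deficient 3 well below the rest. limma put the log2 change at -0.28 (SE 0.10, adjusted p = 0.866), which left 82.7% of the control mean, and it was -0.16 without triple-deficient 3.

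In the catalytic head, Atp5b was at 599, 613 and 645 FPKM in controls and 615, 613 and 591 in triple-deficient libraries, and Atp5a1, the alpha subunit, at 302 ± 6.12 and 297 ± 3.70 FPKM. The central stalk, which turns inside the head, held both the largest downward and the largest upward change of the complex. Atp5d, its delta subunit, was at 147, 137 and 146 FPKM in controls and 130, 125 and 94.3 in triple-deficient libraries. All triple-deficient values were below the controls and triple-deficient 3 was lowest by 30.8 FPKM (log2 change -0.31, SE 0.11, limma adjusted p = 0.866). Without triple-deficient 3 the change was -0.17. Cbarp is annotated on the opposite strand over part of Atp5d, which is 1 of the 25 members with such an overlap. Atp5e, the epsilon subunit that binds beside it, was at 201, 210 and 237 FPKM in controls and 237, 251 and 218 in triple-deficient libraries, with overlap (log2 change 0.12, SE 0.08, limma adjusted p = 0.946). The change was 0.07 without control 1, 0.08 without triple-deficient 2 and 0.19 without control 3.

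The membrane ring that turns as protons pass is built of subunit c, and 3 genes encode the same mature subunit with different import sequences. Atp5g3 was the most abundant of them at 339 FPKM over the 6 libraries, then Atp5g2 at 196 and Atp5g1 at 149, and the order was the same in every library, with no overlap between the 3 genes. Atp5g1 was at 148, 142 and 148 FPKM in controls and 148, 164 and 142 in triple-deficient libraries. Atp5g2 was at 199 ± 8.35 and 194 ± 13.5 FPKM, and Atp5g3 at 342 ± 6.79 and 336 ± 14.3. The intervals of all 3 changes lay between -0.18 and 0.19. The peripheral stalk, which holds the head still, had intervals between -0.16 and 0.17. Atp5k was at 647, 644 and 810 FPKM in triple-deficient libraries against 635, 723 and 685 in controls, the highest value being that of triple-deficient 3.

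Triple-deficient 3 gave the lowest of the 3 triple-deficient values in 33 of all 66 members, triple-deficient 1 in 29 and triple-deficient 2 in 4. Triple-deficient 3 also did so in all 6 members that were lower at an unadjusted p below 0.05. These 6 were picked by a p that includes triple-deficient 3, so its low place among them is partly set by that choice. Over all 66 members, 46 were lower without triple-deficient 3, against 44 with all libraries. Across the 66 members, whose values share libraries and are not independent, the change correlated with GC content at Spearman -0.30, and the deviations of triple-deficient 3 did so at -0.41. Without triple-deficient 3 the correlation was 0.05. Without that library the changes of these 6 ran from -0.23 for Ndufb2 to -0.10 for Ndufa7. With the trends of each library with GC content and transcript length removed, 5 members were lower and 3 higher at an unadjusted p below 0.05, a level that 5.86% of all genes reached under that setting. None passed the adjusted threshold. Changes were then -0.35 for Ndufb2, -0.28 for Uqcrq and -0.24 for Atp5d, against -0.32, -0.28 and -0.31 before removal. Of these only the change of Atp5d became clearly smaller, and that of Ndufb2 became larger. The GC content was 43.7% for Ndufb2, 50.2% for Uqcrq and 59.3% for Atp5d. These values are of the longest coding transcript, of 4371, 1521 and 1410 bases. Which transcripts of each gene were expressed was not examined, so their GC content and length may differ from these.

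**Figure D4:**
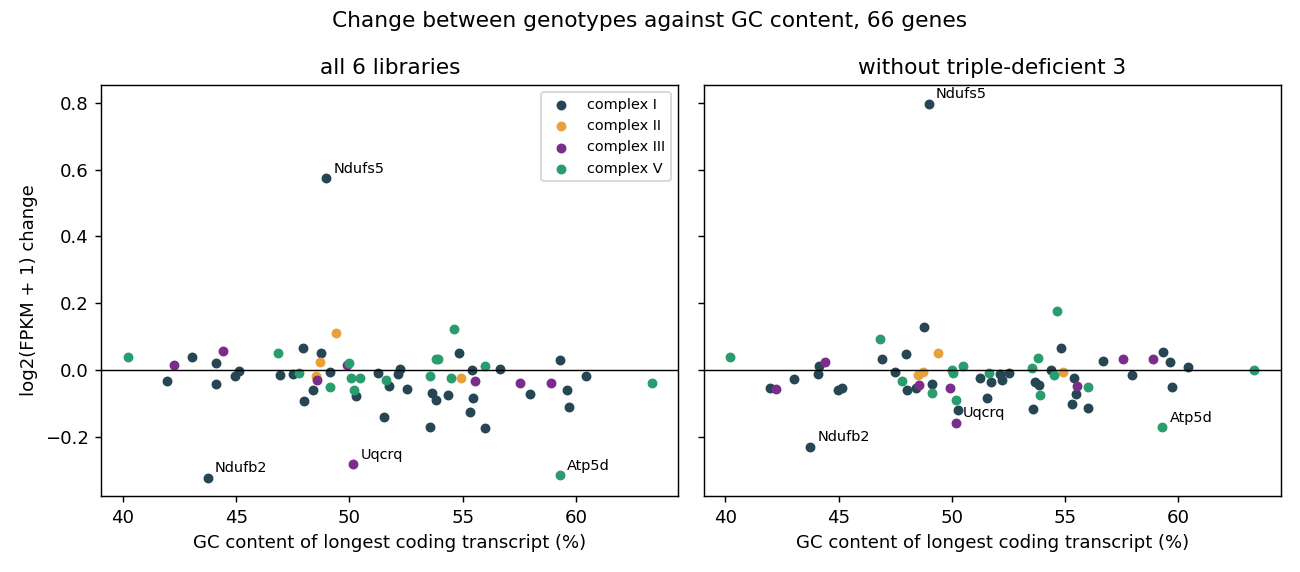
Log2 change of FPKM + 1 of each member against the GC content of its longest coding transcript, with all 6 libraries (left) and without triple-deficient 3 (right), coloured by complex. The downward slope on the left (Spearman -0.30 across 66 genes) is near 0 on the right (0.05). Ndufb2, Uqcrq and Atp5d lie nearer to 0 on the right. By that transcript, only Atp5d of these is at the GC-rich end.

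None of the related lists held a gene past the threshold over all genes. Their counts at an unadjusted p below 0.05 stand beside 1.76% of all genes higher and 3.33% lower at that level. Of 5 further subunits that the symbol pattern misses, 1 was lower and none higher at that level, with a median of -0.02. Among them 1 lay below the controls and 1 above. The smallest p was that of Ndufab1, the acyl carrier protein of complex I. It was at 58.9 ± 2.11 FPKM in controls and 51.1 ± 2.45 in triple-deficient libraries, without overlap (log2 change -0.20, SE 0.05, limma adjusted p = 0.655). Assembly factors of complex I (15 tested) had 2 genes higher and 1 lower at an unadjusted p below 0.05 and a median of -0.01, with the smallest p for Tmem126b, at 13.3 ± 0.625 and 15.1 ± 0.459 FPKM. Among assembly factors of complexes II, III and V (13 tested) none reached that level, the smallest p being that of Sdhaf1, at 28.0 ± 2.98 and 25.03 ± 0.563 FPKM. Nuclear subunits of complex IV (15 tested) had 2 lower and none higher, with a median of -0.06 and the smallest p for Cox5b, whose log2 change of -0.37 (SE 0.06, limma adjusted p = 0.299) was larger than that of any member that was lower. In the citric acid cycle (13 tested, median -0.003) and among mitochondrial carriers and membrane proteins (17 tested, median 0.004) no gene reached an unadjusted p below 0.05, with the smallest p for Dlst and Phb2. Among 13 regulators of mitochondrial genes 1 was higher: Ppargc1a, the coactivator of mitochondrial biogenesis, was at 10.2 ± 0.240 and 11.3 ± 0.530 FPKM (log2 change 0.13, limma adjusted p = 0.943).

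Nuclear respiratory genes are known targets of NRF1, the ETS factor GABP and YY1, and Panky is known as a repressor of transcription driven by CRX, the photoreceptor homeobox factor. Of the 66 members, 56 matched RefSeq's GRCm38.p6 table of windows from 250 bases before to 50 after a start. Letters were searched on both strands, without asking whether motifs overlap. TGCGCA, part of the NRF1 motif, was in a window of 16 members (28.6%), against 8.79% of all 27025 genes in the table and 15.5% of those that also passed the filter here. CCGGAAG, of the ETS family, was in 13 (23.2%, against 9.93% and 18.4%), and ATGGCG, the core of the YY1 motif, in 15 (26.8%, against 10.2% and 16.8%). TAATCC, of CRX, was in 4 (7.14%, against 8.14% and 7.24%), all 4 in complex I, which supplied 32 of the 56 matched members. Of the 7 members with an unadjusted p below 0.05, 6 had a window: Ndufs5 and Ndufa6 held the NRF1 letters, Ndufa7 those of YY1, and Ndufb2, Ndufv3 and Atp5d none of the 4 motifs. To show 1 window with a match, its letters in capitals, and 1 without, these are the 120 bases before each start, 5′ to 3′ on the strand of the gene, for Ndufa6 at chr15:82354292-82354411 (minus strand) and for Ndufb2 at chr6:39592445-39592564 (plus strand).
Ndufa6: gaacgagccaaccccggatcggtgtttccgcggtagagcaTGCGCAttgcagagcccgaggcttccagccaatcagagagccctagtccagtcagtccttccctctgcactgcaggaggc
Ndufb2: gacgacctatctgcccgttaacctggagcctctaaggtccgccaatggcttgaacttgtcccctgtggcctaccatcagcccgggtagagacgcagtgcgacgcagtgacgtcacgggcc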

How the data were processed

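Polyadenylated RNA of whole retinas was sequenced with a stranded TruSeq kit, per the labels' protocols. The authors deposited 1 FPKM value per gene symbol and library. The submitters' processing notes name TopHat2 2.1.1, Bowtie2 2.3.5.1, Cufflinks 2.2.1, Cuffdiff and the build mm10, without roles or settings. FPKM were used as deposited. Genotypes (3 against 3 libraries) were compared on log2(FPKM + 1) by limma (version 3.58.1, under R 4.3.3; trended prior variance), over 14325 genes averaging 0.5 FPKM or more. Tests were two-sided, with Benjamini-Hochberg adjustment over all genes and a threshold of 0.05; fold changes on this scale understate those of low genes. The fit was tested on simulated data, drawn independently for each gene and without trends with GC content or length. That simulation cannot show how the fit behaves under the trends of these libraries. Relative depth came from ratios of values below 0.3 FPKM to those of control 1, of which 61.1% to 63.9% matched, within 0.005 (log2), a quotient of integers no larger than 6. GC content and length are of the longest GENCODE M21 coding transcript, or the longest of any kind for genes without one (99.2% of genes tested). Copies were found with BLAST 2.17.0. Coordinates are GRCm38, which is mm10.

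The members and lists were chosen with earlier results of these data known. Named are members with an unadjusted p below 0.05, the 3 most abundant and the extreme changes of each complex, all of complex II, the c-ring, the core of complex I and the NDUFA4 relatives, and the gene with the smallest p of each pathway list. Ndufb5, Ndufb10, Ndufa9, Ndufa11, Ndufa12, Atp5a1, Atp5s, Atp5sl and BC002163 were added after their values were seen. The values of 1 core subunit of complex I are not reported here, though counts, sums and medians include it. Alternatives varied the pseudocount (0.1 and 5), filter, variance model, scaling, base composition, replicate block, array weights and each library; 2 were added after the data were seen, the summing of Ndufs5 with BC002163 and trend removal without triple-deficient 3.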

Additional observations from a re-analysis of the deposited data

How the results depend on the processing

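No member was called under any of 20 alternatives, the lowest adjusted p of a member being 0.0825, for Ndufs5 without triple-deficient 3. Counts over all genes were 2 with a pseudocount of 5, with no filter and with robust shrinkage, 9 without triple-deficient 3 and with trends removed, and 3 to 11 when 1 library was left out (11 each without triple-deficient 1 or 3, and 8 without control 3), against 4. The medians of complexes I, III and V moved by less than the spread between libraries, and that of complex II ran from -0.0116 to 0.0355 over the left-out libraries. Of 30 members recomputed 13 kept their sign under every alternative, among them Ndufb2 (-0.37 to -0.23), Uqcrq (-0.35 to -0.15), Atp5d (-0.40 to -0.15), Ndufv3, Ndufa6 and Ndufa7. Those named were picked by their p in the same data. Except for Ndufa6 their groups do not overlap, so leaving out 1 library could not turn their sign. The filter and variance model leave the estimate itself unchanged. A kept sign is therefore largely set by that choice. The other 17 of the 30 turned sign in at least 1 alternative. The cause was not tested. Summed with BC002163, Ndufs5 was at -0.0352. With quantile normalization Atp5b was at 0.0394, Ndufb8 at 0.0126 and Ndufs1 at 0.0064. With the GC trend removed Atp5g2 was at 0.1062, Ndufa4 at -0.0039, Ndufs7 at 0.0118 and Uqcrb at -0.0198, and with GC and length trends removed, with or without the replicate block, Atp5g2 was at 0.124, Ndufs7 at 0.0286, Sdhb at 0.0114 and Uqcrb at -0.0023. With array weights Atp5g2 was at 0.026, Atp5g3 at 0.0007, Atp5k at -0.0452, Ndufb8 at 0.0417, Ndufs7 at 0.0132 and Uqcrh at -0.0006. Without triple-deficient 3 and with trends removed, Atp5g2 was at 0.0788, Atp5g3 at 0.0296, Atp5k at -0.056, Ndufb8 at 0.0402, Ndufs7 at 0.0578, Sdhb at 0.0074, Sdhc at -0.01, Uqcrb at -0.0338 and Uqcrh at -0.034. Over the left-out libraries the ranges were -0.0078 to 0.0929 for Atp5g1, -0.0455 to 0.0106 for Atp5g3, -0.0756 to 0.09 for Atp5k, -0.0114 to 0.0802 for Ndufa4, -0.0412 to 0.1256 for Ndufa4l2, -0.0464 to 0.0318 for Ndufb8, -0.054 to 0.0371 for Ndufs1, -0.1028 to 0.0241 for Ndufs7, -0.0114 to 0.0906 for Ndufs8, -0.0178 to 0.0288 for Ndufv1, -0.0161 to 0.0711 for Sdhc, -0.0564 to 0.1 for Uqcrb and -0.0546 to 0.0729 for Uqcrh. The deviations of control and triple-deficient libraries with the same number correlated at 0.0219, 0.114 and 0.0667 across genes, so the numbers were not taken to pair libraries; with the replicate block 4 genes were called over all genes, no member among them, and the smallest adjusted p of a member was 0.51.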
